A study of Drosophila melanogaster with 2 samples.

Results

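The data describe stretches of the fruit fly genome, lying between genes and away from any promoter, at which the mitochondrial DNA-binding protein TFAM was recovered by chromatin immunoprecipitation and sequencing (ChIP-seq). A region was included when it came from a nuclear chromosome, when its summit lay outside every annotated gene and more than 500 bp from any transcription start site, and when its value in the pooled list, which the authors called from the alignments of both replicates, was 70 or more. By this rule 283 intergenic regions were kept, of 9598 regions in the pooled list, 9576 of them nuclear. The regions were thus chosen by their pooled values, and those values are given below as a description only. They fell into 277 places that do not overlap, because 12 regions formed overlapping pairs.

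Whole Drosophila melanogaster embryos of both sexes, aged 0 to 16 h, were used, from the transgenic strain TFAM-GFP, which stably expresses TFAM with GFP fused to its C terminus. The insertion is the only genetic change named, and the driving promoter is not given in the labels. The 2 samples form 1 group, biological replicates 3 and 4, so no contrast between conditions exists and no test was made. The precipitation used an antibody to GFP per the descriptions, whereas the antibody field names TFAM. No untagged or control library was analysed here. An embryo of this age range holds many cell types, and the regions cannot be assigned to any of them.

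TFAM is an HMG-box protein. It bends and coats mitochondrial DNA, packs it into nucleoids and, in mammals, helps start its transcription. HMG boxes bind the minor groove of DNA and bend it. In the fly nucleus, the DNA between genes holds enhancers, Polycomb response elements and insulators, which act on promoters at a distance.

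The sequences around some of the strongest summits are printed here as examples. The regions shown are among the highest of all, but are not a complete set of them. They are examples with the motif matches described below or, for RasGAP1, with none of these. The CG13321 region of rank 3 holds none of these either and is not shown. The same is true of the CG43131 and DNAlig3 regions, next in rank after RasGAP1. The CG13323 and CycB regions, of ranks 2 and 5, hold such matches and are not shown. Each is named by the protein-coding gene with the nearest start site. Each run reaches 100 bp to either side of the summit and is read 5′ to 3′ from the RefSeq Release 6 genome (build dm6). Capitals mark matches, on either strand, to the core of Pho (GCCAT), the GAGA factor motif (GAGAG), the M1BP core (GGTCACAC) and the CTCF core (AGNNGGCGC). Pho recruits Polycomb complexes, GAGA factor opens chromatin, M1BP binds promoters with paused polymerase, and CTCF is an insulator protein. A match is a run of letters, not a shown binding site.
CG31668 region (chr2L:2202303-2202503, + strand): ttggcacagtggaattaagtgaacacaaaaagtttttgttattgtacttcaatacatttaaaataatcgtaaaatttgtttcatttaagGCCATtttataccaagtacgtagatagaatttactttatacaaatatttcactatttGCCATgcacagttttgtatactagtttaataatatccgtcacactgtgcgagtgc
tara region (chr3R:16222406-16222606, + strand): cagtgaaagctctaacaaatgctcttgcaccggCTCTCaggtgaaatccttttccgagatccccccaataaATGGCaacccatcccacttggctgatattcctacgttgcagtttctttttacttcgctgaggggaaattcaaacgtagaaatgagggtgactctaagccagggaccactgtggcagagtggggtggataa
sp3 region (chr3R:21520249-21520449, + strand): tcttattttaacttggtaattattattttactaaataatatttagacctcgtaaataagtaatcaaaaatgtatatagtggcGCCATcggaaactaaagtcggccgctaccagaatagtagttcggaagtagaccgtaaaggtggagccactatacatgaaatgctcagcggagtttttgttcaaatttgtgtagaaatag
RasGAP1 region (chr3L:9855839-9856039, + strand): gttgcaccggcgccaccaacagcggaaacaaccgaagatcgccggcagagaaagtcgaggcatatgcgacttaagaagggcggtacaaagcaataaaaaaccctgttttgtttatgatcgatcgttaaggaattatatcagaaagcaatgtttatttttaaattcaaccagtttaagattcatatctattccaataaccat
jp region (chr2L:9567400-9567600, + strand): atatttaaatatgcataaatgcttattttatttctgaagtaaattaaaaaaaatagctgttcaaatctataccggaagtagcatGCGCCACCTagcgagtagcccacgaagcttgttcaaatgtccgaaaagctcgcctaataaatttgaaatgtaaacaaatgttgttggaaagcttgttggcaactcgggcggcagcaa
slp2 region (chr2L:3832426-3832626, + strand): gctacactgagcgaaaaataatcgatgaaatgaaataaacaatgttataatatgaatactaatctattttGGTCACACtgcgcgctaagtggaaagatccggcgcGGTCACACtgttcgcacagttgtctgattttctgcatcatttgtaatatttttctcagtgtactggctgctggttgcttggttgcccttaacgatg
The CG31668 run holds 2 matches to the Pho core, and 70.7% of its bases are A or T. The tara run holds 1 Pho match and 1 GAGA match in a less A+T-rich stretch, at 51.7%. The sp3 run holds 1 Pho match, the jp run 1 CTCF match, and the slp2 run 2 copies of the M1BP core. The RasGAP1 run holds none of these.

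Of the 283 regions, 159 (56.2%) overlapped the shorter list that the authors kept after applying a limit on irreproducible discovery, which scores how well the ranks of regions repeat between replicates. Among all nuclear regions of value 70 or more the share was 61.6%, so the share of intergenic regions was near that background. It was 59.0% of 798 intronic regions and 65.8% of 955 promoter regions chosen with the same minimum value. The overlap follows the pooled value. The highest region outside the thresholded list, near CG10428, had a value of 92.1, and the lowest one listed there with the same coordinates, near croc, had 92.5. Another 3 regions with lower values, near bin (92.3), Cyp6v1 (72.3) and CG7560 (70.2), counted as overlapping because a neighbouring thresholded region reached into them.

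The pooled value ran from 70.05 to 494, with a median of 97.7. The median was 97.5 in intronic and 107 in promoter regions of value 70 or more. The deposited q-value was at most 0.0288 in the 283 and at most 0.0289 in all nuclear regions of value 70 or more. At the edge of the rule, the 3 regions just inside lay near RabGGTa (70.05), comm (70.2) and Tl (70.2), and the 3 intergenic regions just outside lay near CG5550 (69.97), CheB38c (69.9) and Spn43Aa (69.9).

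The highest intergenic region lay on 2L between COX7AL2 and CG31668 (chr2L:2202295-2202520). Its value was 494 in the pooled list, 243 in the list of replicate 3 and 248 in that of replicate 4. The scale of the value differs between lists: the median nuclear region had 18.7 in replicate 3, 26.2 in replicate 4 and 46.1 in the pooled list. Replicate values are therefore given side by side as deposited, and a difference between them includes that of the scale. The deposited values of the replicates were close here, and 2 more thresholded intergenic regions lay within 3077 bp.

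Next in rank were 2 regions in gaps bordered by the paired genes Psc and Su(z)2, which encode related Polycomb group proteins. The nearest start sites were those of the genes on the other side, CG13321 at 4663 bp and CG13323 at 11934 bp. The region beside Su(z)2, in the 36783 bp between it and CG13323 (chr2R:13035242-13035432), had a pooled value of 476, with 206 in replicate 3 and 264 in replicate 4. The region beside Psc, between it and CG13321 (chr2R:12958147-12958279), had a pooled value of 435, with 229 and 205 in replicates 3 and 4. A weaker region next to the latter had a pooled value of 108. The locus was singled out after its values were seen. Its 3 regions spanned 77.1 kb, and all of them overlapped the thresholded list. The replicates ordered the strongest regions differently: the region beside Su(z)2 was above that beside Psc in replicate 4 and below it in replicate 3.

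The gene tara encodes a nuclear protein of the trithorax group and had 2 regions upstream of its start site. The farther one (chr3R:16222409-16222600), 3145 bp from that start, had a pooled value of 412, with 162 in replicate 3 and 239 in replicate 4. The nearer one (chr3R:16224292-16224681), 1164 bp away, had a pooled value of 229.7, with 123 and 112. A long non-coding RNA gene starts between them, and it held the nearest start site of both.

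The region between CycB and blw (chr2R:22802902-22803058) had a pooled value of 396, with 183 in replicate 3 and 209 in replicate 4. CycB encodes cyclin B, which drives mitosis, and blw the alpha subunit of the mitochondrial ATP synthase. It lay in a gap of 1340 bp into which both genes end. The region between C15, a homeobox gene, and sp3 (chr3R:21520274-21520456) had a pooled value of 349.8, with 165 and 176. It was 579 bp from the sp3 start site, close to the limit of 500 bp.

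The other regions with pooled values of 300.1 or more lay near RasGAP1, which switches off Ras (340.0), between CG43131 and RabGGTa, a subunit of the enzyme that lipidates Rab proteins (329), between Sol1 and Cyp9f2, with DNAlig3, a DNA ligase gene, as the nearest start (320.1), near jp, which encodes the membrane-tethering protein junctophilin (309.97), and between slp1 and slp2 (300.1). The slp genes encode forkhead transcription factors of the segmentation cascade. The slp2 region (chr2L:3832455-3832611) differed more between the replicates than its neighbours in rank, with 114 in replicate 3 and 181 in replicate 4. The region between zfh2, a zinc finger homeobox gene, and Asator on chromosome 4 (chr4:497830-497977) had a pooled value of 256, with 106 and 147. Ranks 13 to 20 fell from 249 near CG43401 and 245 near RYBP, a partner of Polycomb proteins, to 202 near CG3149. Of the 20 highest, 13 were narrower than 390 bp, which was the width of all other intergenic regions, and those 13 were ranks 1 to 12 and 20.

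**Figure D1:**
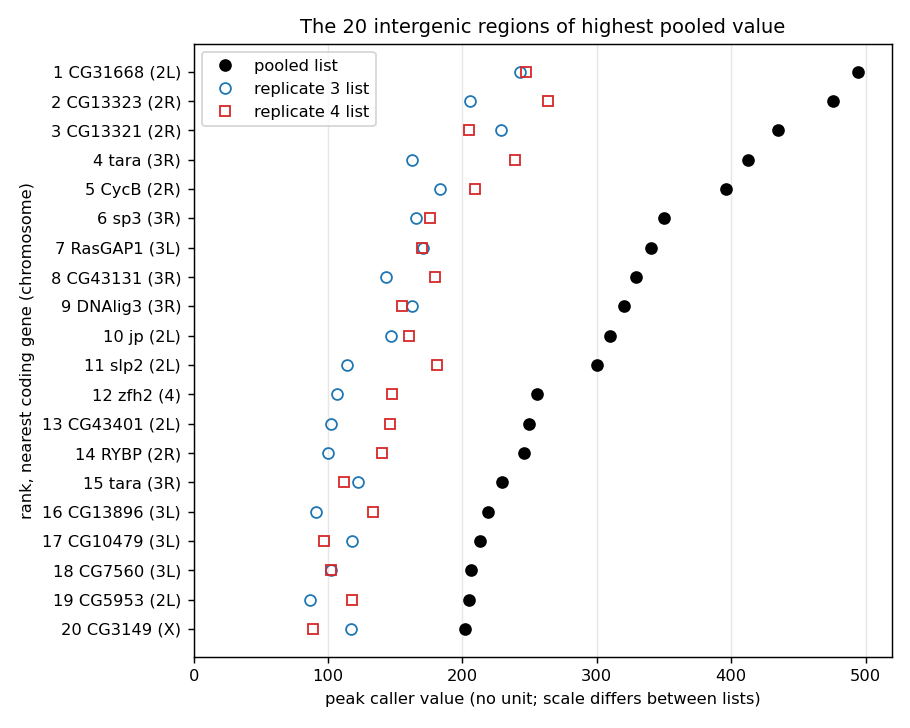
Value assigned by the authors' peak caller (x axis, no unit) for the 20 intergenic regions of highest pooled value (y axis: rank, nearest coding gene and chromosome arm). Filled points are the pooled list and open circles and squares the lists of replicates 3 and 4. All 20 were listed in both replicates, and the pooled values fall from 494 to 202.

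In all, 277 of the 283 intergenic regions (97.9%) overlapped a region in both replicate lists, against 98.3% of all nuclear regions of value 70 or more. The replicate lists hold background regions too. With a q-value of 0.05 or less required in both replicate lists, 181 (64.0%) remained, against 66.3% of all nuclear regions of that value. The summit was within 100 bp in both replicates for 261 regions (92.2%), against 91.2% of all nuclear regions of value 70 or more. The median shift was 14 bp in replicate 3 and 11 bp in replicate 4, both for these regions and for all nuclear regions of that value. Among lower-value intergenic regions, under 70, the match in both lists was 50.9% of 1328. The pooled value that defined these groups comes from the same reads, so this contrast is a description.

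The median value was 50.5 in replicate 3 (range 18.5 to 243 over regions in both lists) and 53.2 in replicate 4 (21.4 to 264). The value was higher in replicate 4 for 165 of 277 regions (59.6%), with a median ratio of 1.07, against 58.2% and 1.08 for all nuclear regions of value 70 or more. In 199 regions (71.8%) the replicates were within 1.5-fold of each other. That share was not counted over all nuclear regions. The scales of these lists were set separately, so the median ratio is no difference in amount. The rank correlation (Spearman) between the replicates was 0.478 over the 277 regions and 0.352 without the 20 highest. It was -0.603 over the 118 outside the thresholded list. These span a narrow range of a pooled value that comes from both replicates, so that figure does not measure agreement.

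The widest differences between replicates lay at regions with pooled values from 79.1 to 142. The pair of overlapping regions upstream of bin, a forkhead gene of the visceral mesoderm, had 112 in replicate 3 and 32.1 in replicate 4. Both regions of the pair matched the same replicate regions, as did the other overlapping pairs, near chinmo, CG43245, CG6163, CG7560 and Cyp6v1. In the other direction, the region nearest Ca-beta, a calcium channel subunit gene, had 20.3 in replicate 3 and 72.8 in replicate 4. The region near 18w, a Toll family receptor gene, had 18.9 and 65.9. The region near H15, a T-box gene of the heart and epidermis, had 20.4 and 58.2.

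The 6 regions missing from one replicate list had pooled values of 74.5 to 84.2. Those near wg, soti, eyg and Reg-2 were missing from the list of replicate 4, and those near Rh5 and hid from the list of replicate 3. The wg region had 76.2 in replicate 3, and the Rh5 region 75.3 in replicate 4.

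**Figure D2:**
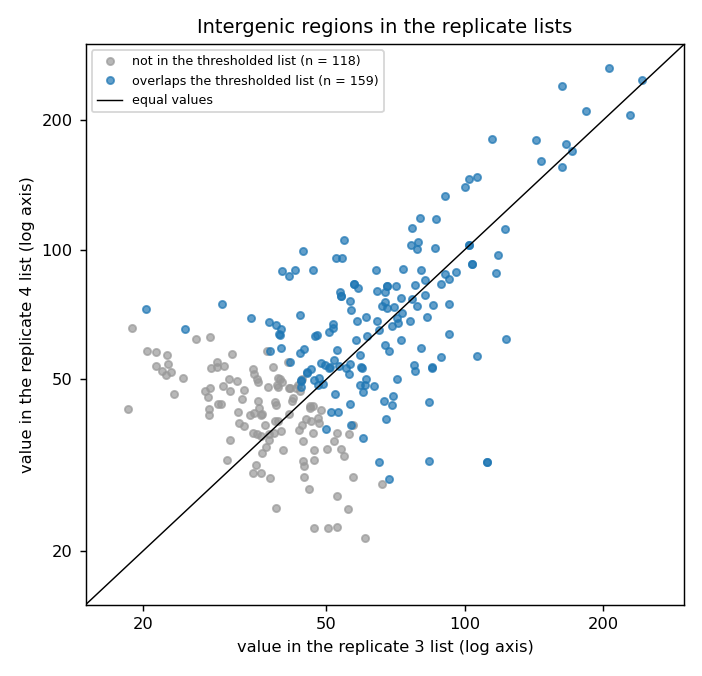
Value in the list of replicate 4 against that of replicate 3 (log axes, no unit) for the 277 intergenic regions found in both lists. Points are regions, blue where they overlap the thresholded list (159) and grey where they do not (118), and the line marks equal values. The spread about the line is wide at low values among the grey points, whose pooled values lie between 70.05 and 92.1. The points farthest from the line include blue ones, near bin and Ca-beta.

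Another intergenic region of value 70 or more was within 10 kb of 115 of the 283 (40.6%), and 55 regions formed 15 runs of 3 or more with gaps under 10 kb. Both counts include the overlapping pairs. They were not made for other kinds of region, so closeness is not shown to be particular to these. The 283 regions had 219 nearest coding genes. Of these genes, 181 had 1 region, 25 had 2 and 13 had 3 or more.

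The densest of the longest runs lay upstream of CG7560 on 3L, where 6 regions spanned 6900 bp. Its pooled values in order along the chromosome were 93.0, 139.9, 120.3, 206, 70.2 and 99.2. All 6 overlapped the thresholded list, the fifth of them through its neighbour. In the highest, the values were 102 in both replicates. The other run of 6, between hng3 and CG13898 on 3L, spread over 24169 bp around 2 isoleucine tRNA genes. Its values were lower, from 71.4 to 109.8, and 3 of its regions overlapped the thresholded list.

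The gene chinmo encodes a BTB zinc finger protein that sets the temporal identity of neurons. Its 5 regions on 2L spanned 15994 bp. Their pooled values, in order, were 72.7, 194, 97.4, 182 and 173, and 4 of them overlapped the thresholded list. The replicate values of the 3 highest were 103, 95.7 and 78.6 in replicate 3 and 92.4, 88.6 and 100.4 in replicate 4. These did not differ by more than 1.5-fold between the replicates in any of the 3. A further run of 5 regions spanned 8003 bp on 2L, with values from 71.9 to 111. It lay on both sides of the opsin gene Rh5, between Hacd1 and a non-coding RNA gene.

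**Figure D3:**
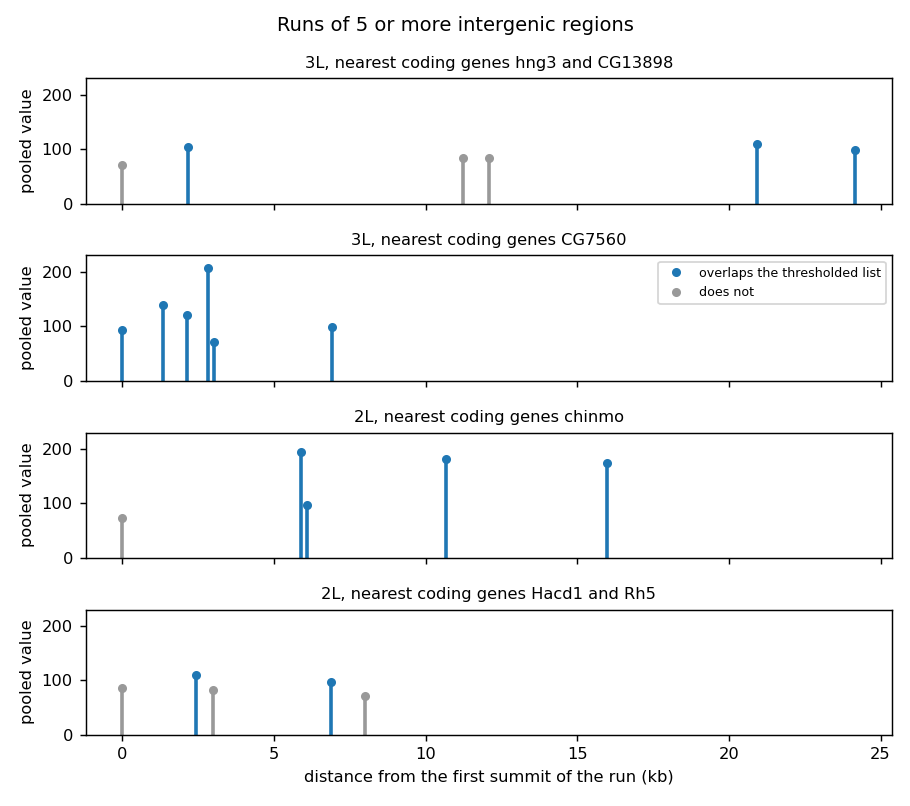
Pooled value (y axis, no unit) against distance from the first summit (x axis, kb) for the 4 runs of 5 or more intergenic regions. Each line is a region, blue where it overlaps the thresholded list and grey where it does not. The CG7560 run is packed within 6900 bp, and the chinmo run holds 3 regions of 173 or more.

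The remaining 11 runs held 3 regions each. The run at CG31668 held the highest region of all. A run of 3 near noc, a zinc finger gene, and CG33648 reached 192. A run of 3 upstream of tup, a LIM homeobox gene of neurons and heart, had its maximum at 152, and its lowest region, at 71.9, was outside the thresholded list. A run of 3 near scyl, an inhibitor of growth, reached 103. The others lay near CheA75a (highest value 192), CG4218 and CG3473 (167), CG43245 (143), CG6163 (141), soti (137), PVRAP (104.6), and CASK and Gr93a (95.5).

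The cell-death activators hid, grim and rpr lie in a row on 3L, separated by long gaps. The stretch from hid to just past rpr held 7 intergenic regions over 210 kb, a locus also singled out after its values were seen. Near the cell-death genes themselves, the region nearest hid had a pooled value of 77.5, that nearest grim 79.4 and that nearest rpr 137, and of these 3 the rpr region alone overlapped the thresholded list. The rpr region had 53.6 in replicate 3 and 79.8 in replicate 4. The remaining 4, nearest CheA75a (192, 102 and 96.5) and CG5103 (156), all overlapped the thresholded list.

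The median distance from summit to the nearest start site of any gene was 2761 bp, with quartiles of 1335.5 and 5580.5 bp. It was 3042.5 bp in intergenic regions of lower value and 2501.5 bp in intronic regions of value 70 or more. Within the 283, it was 2411 bp for regions in the thresholded list and 3048 bp for the others. Distances over 10 kb were found for 31 regions (11.0%), against 13.0% of the lower-value ones. The rule left 36.3 Mb of sequence in which a summit could lie, 27.1% of the chromosome arms, and that sequence was not filtered for how well reads can be placed. Per Mb of it there were 15.9 regions at 500 to 1000 bp from a start site, 13.4 at 1000 to 2000 bp, 10.9 at 2000 to 5000 bp, 6.70 at 5000 to 10000 bp and 2.43 beyond. The density of lower-value intergenic regions fell over the same bins, from 66.2 to 13.6 per Mb.

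The 5 farthest regions all lay in long gaps on 3L. A pair of overlapping regions sat in the 75047 bp between NijA and CG43245, 32123 and 31893 bp from the nearest start, with pooled values of 149 and 114. Another region in the same gap was 19086 bp from a start and had a value of 180.0, with 123 in replicate 3 and 62.1 in replicate 4. A region downstream of vvl, a POU factor gene of the trachea and nervous system, was 26972 bp from a start (76.9). The grim region was 24718 bp from the start of a non-coding RNA gene.

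Regions were unevenly spread over the chromosome arms. Arm 3L held 97 (34.3%), arm 2L 71 and arm 3R 54, whereas 2R held 39, X 20 (7.07%) and chromosome 4 held 2. Per Mb of eligible sequence, the density was 10.8 on 3L, 10.6 on 2L, 8.15 on 4, 7.05 on 3R, 5.24 on 2R and 3.81 on X. Intergenic regions of lower value had a similar order, from 47.0 per Mb on 3L to 21.5 on X.

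**Figure D4:**
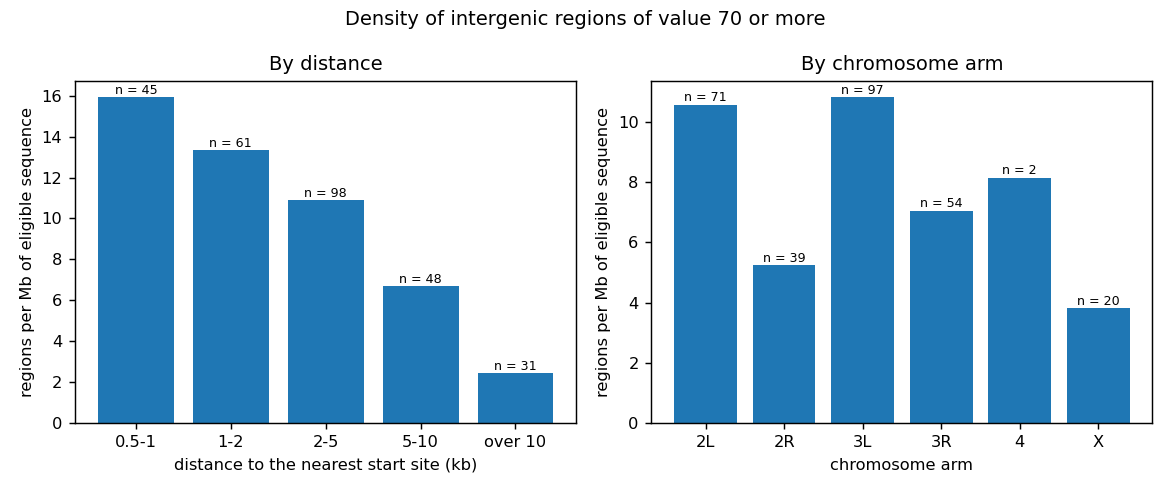
Intergenic regions of value 70 or more per Mb of eligible sequence (y axis, from 0), by distance to the nearest start site (left) and by chromosome arm (right). The numbers above the bars are region counts. Density falls from 15.9 to 2.43 per Mb with distance, and arms 3L and 2L stand highest at 10.8 and 10.6.

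The orientation of the neighbouring genes was tandem for 141 regions (49.8%), divergent for 84 (29.7%) and convergent for 58 (20.5%). Of all eligible sequence, 50.3%, 20.4% and 25.6% lay in such gaps, the rest in none of these classes, and of the lower-value regions 49.2%, 26.6% and 24.1%. The nearest start site belonged to a coding gene for 185 regions, to a non-coding RNA gene for 86 and to a tRNA gene for 12. Coding genes were nearest for 866 of the 1328 lower-value intergenic regions. The non-coding RNA share was 30.4%, against 32.3% of those lower-value regions. The tRNA share was 4.24%, against 1.73% of lower-value intergenic regions and 1.00% of all nuclear regions of value 70 or more. The 12 lay 533 to 14118 bp from the tRNA start, with a median of 2558.5 bp. The rule kept out any summit in a tRNA gene or within 500 bp of its start, and 4 of the 12 shared the hng3 run. The highest lay 533 bp from an isoleucine tRNA gene on 2R, with a pooled value of 156 and replicate values of 52.6 and 95.6.

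For 27 regions (9.54%), the promoter of the nearest coding gene also held a region of value 70 or more. The share was 7.98% for lower-value intergenic regions and 24.2% for intronic ones. Summits lay in soft-masked repeat sequence for 54 regions (19.1%), against 26.7% of the eligible sequence and 21.9% of all nuclear regions of value 70 or more. A single summit, near the cell adhesion gene ed, lay in an annotated transposable element, as did 8 of the 1328 lower-value intergenic summits. It was the only such summit among the 2093 nuclear regions of value 70 or more. The ed region had a pooled value of 136, with 46.8 in replicate 3 and 89.9 in replicate 4.

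The DNA around the summits was rich in A and T. Within 100 bp of the summit, the median A+T share was 63.7%, with quartiles of 59.2% and 67.2%. It was 59.7% in intergenic regions of lower value, 64.2% in intronic and 64.7% in promoter regions of value 70 or more. The eligible sequence as a whole was 59.2% A+T. Within 250 bp the median of the intergenic regions was 59.1%. The 20 highest regions (63.2%) and the 183 ranked below 100 (63.7%) had like A+T shares.

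Motifs were counted within 100 bp of the summit on both strands, and the share among all 9576 nuclear regions of the pooled list, the 283 included, is given beside each. Intervals in brackets are Wilson intervals (95%) and cover the counting of regions only. The A+T share differed between kinds of region, as given above, and its part in the motif shares was not tested. The letters ACAAT, the core recognised by many HMG-box factors of the Sox type, were found in 148 regions, 52.3% [46.5 to 58.0], against 45.5% of all nuclear regions, 46.0% of lower-value intergenic regions and 51.6% of intronic regions. TFAM itself binds with little sequence preference.

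Among the E-box motifs of bHLH proteins, CAGCTG was found in a smaller share of the intergenic regions than of the pooled list and CATATG in a larger one. The letters CAGCTG, bound by many tissue-specific bHLH factors, were in 8 regions, 2.83% [1.44 to 5.48], against 9.89% of all nuclear regions and 8.89% [7.47 to 10.5] of lower-value intergenic ones. It was in 6.64% of intronic and 9.84% of promoter regions of value 70 or more. The letters CATATG, bound by Twist, the mesoderm determinant, were in 31 regions, 10.95% [7.83 to 15.1], against 7.06% of all nuclear and 7.08% of lower-value intergenic regions, and 10.3% [8.36 to 12.6] of intronic regions of value 70 or more. The letters CACGTG, bound by Myc and related proteins, were in 1 region, near CG6465 (0.353%), against 2.42% of all nuclear and 2.01% of intronic regions. With the top-ranked regions of a single replicate list, an alternative chosen after seeing the data, it was 1.03 to 1.41%.

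The DRE and the M1BP core, both known from promoters, were found in 1 region at most. The DRE letters TATCGATA, bound by the proliferation factor DREF, were in 0 of 283 regions (the Wilson interval reaches 1.34%), against 2.10% of all nuclear and 5.65% of promoter regions of value 70 or more. Lower-value intergenic regions (0.602%) and intronic regions (0.251%) had few DRE matches too. The shorter CGATA, bound by the insulator protein BEAF-32 and contained in the DRE letters, was in 62 regions (21.9%), against 24.3% of all nuclear and 31.2% of promoter regions. The M1BP core was in 1 region, the slp2 region printed above, against 1.67% of all nuclear, 3.56% of promoter, 0.125% of intronic and 0.301% of lower-value intergenic regions.

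For the remaining motifs, the share of the intergenic regions is given first and that of the pooled list after it. The Pho core was in 88 regions (31.1%), equal to the 31.1% of all nuclear regions and below the 35.6% of lower-value intergenic ones. At the same minimum value of 70, its share was lower, at 26.4% of all nuclear, 24.4% of intronic and 26.5% of promoter regions. The GAGA letters were in 72 regions (25.4%), against 23.6%, and in 25.9% of all nuclear regions of value 70 or more. Pho and GAGA letters were both in 27 regions (9.54%), against 7.09% of all nuclear regions. They were both in 8.06% of lower-value intergenic regions and 6.45% of all nuclear regions of value 70 or more. The TATAAA letters were in 77 regions (27.2%), against 26.5%. At the same minimum value of 70, their share was higher, at 33.4% of all nuclear, 33.1% of intronic and 36.6% of promoter regions. The homeodomain letters TAATTA were in 43 regions (15.2%), against 13.3%, and in 15.6% of all nuclear regions of value 70 or more. The Zelda letters CAGGTA, bound by the early genome activator, were in 11 regions (3.89%), against 4.44%. The AP-1 letters TGANTCA were in 10 (3.53%), against 4.50%. Runs of 8 A were in 40 regions (14.1%), against 11.0%, and in 13.1% of all nuclear regions of value 70 or more. The TA repeat over the same length was in 8 (2.83%), against 2.79%. The CA repeat was in 9 regions, 3.18% [1.68 to 5.93], against 5.93% of all nuclear, 6.25% of lower-value intergenic, 6.64% of intronic and 3.56% of promoter regions. The GA repeat was in 3 regions, 1.06% [0.361 to 3.07], against 2.15%, and in 1.51% [0.977 to 2.31] of lower-value intergenic regions.

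The CTCF core was found in 18 regions, 6.36% [4.06 to 9.83], against 2.96% of all nuclear regions, 2.03% [1.40 to 2.94] of lower-value intergenic, 1.88% of intronic and 15.8% of 57 exonic regions of value 70 or more. This motif and the M1BP core were added after sequences of these regions had been seen, so the CTCF share is a description of the regions that prompted it. The 18 ran from the CycB region (396), the printed jp region (309.97) and the noc region (192) down to a region near RabGGTa (70.05), the lowest of all 283.

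**Figure D5:**
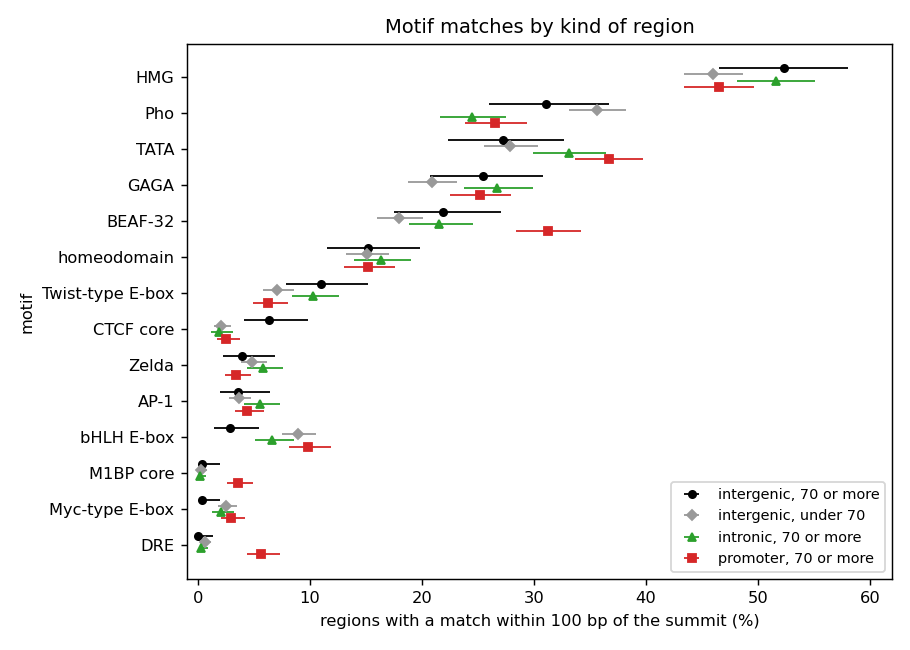
Share of regions with a motif match within 100 bp of the summit (x axis, %) for 14 motifs (y axis) in 4 kinds of region; bars are Wilson intervals (95%) on the counts. Intergenic regions of value 70 or more (black circles) have 52.3% for HMG, 0 for DRE and 6.36% for the CTCF core.

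Of the 283 regions, 36 (12.7%) had as nearest coding gene a member of one of 9 lists of embryonic, chromatin and mitochondrial genes. The share was 9.79% in lower-value intergenic regions, 7.39% in intronic, 3.04% in promoter and 6.21% in all nuclear regions of value 70 or more. The gap between genes that held the region had a median length of 10705 bp, against 11997 bp for the lower-value intergenic regions, and the part of gap length in these shares was not tested. For each list below, the share of the 283 is set against lower-value intergenic regions, then all nuclear regions of value 70 or more. Of all 283, 56.2% overlapped the thresholded list.

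The patterning list, segmentation and axis genes, had 10 regions at 8 of its 42 genes (3.53%, against 2.86% and 0.764%). Of these, 5 overlapped the thresholded list. The slp2 region was the highest, and a second region in the same gap, nearest slp1, had a pooled value of 109.7. At croc, a forkhead gene of the head, a region 11992 bp downstream had 76.5 in replicate 3 and 103 in replicate 4, and one 3400 bp upstream had 24.7 and 65.4. Single regions lay nearest ems, a head homeobox gene, and odd, a pair-rule gene.

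The signalling list had 11 regions at 9 of its 38 genes (3.89%, against 1.51% and 1.62%). Of these, 3 overlapped the thresholded list. The highest was 1474 bp upstream of aop, the ETS repressor of the Ras pathway, at 179, with 89.0 in replicate 3 and 83.4 in replicate 4. Those of ptc, the Hedgehog receptor, and ths, an FGF, followed, the first with 59.4 and 53.6, the second with 67.3 and 40.5. The 2 regions nearest wg, the Wnt ligand, lay 12000 and 11023 bp upstream, and neither overlapped the thresholded list. Both also count for the patterning list. Regions near dpp, fz and Tl, a BMP ligand, a Wnt receptor and the Toll receptor, had pooled values of 70.9, 70.4 and 70.2.

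The muscle and mesoderm list had 6 regions at 5 of its 27 genes (2.12%, against 1.13% and 0.478%), and 5 overlapped the thresholded list. The bin region was the highest at 142, followed by Doc1, a T-box gene of the dorsal embryo and heart, and the actin gene Act87E. The neural list had 5 regions at tup, cpo and eyg, of 38 genes (1.77%, against 1.13% and 0.764%). The cpo region had 44.6 in replicate 3 and 99.0 in replicate 4, a gap of over 1.5-fold. The list for gut, fat body, blood and trachea, of 23 genes, had 2 regions (0.707%, against 1.20% and 0.812%). They lay at srp, the GATA factor of blood and fat body (109.4), and at vvl.

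The Hox list had 1 region (0.353%, against 1.13% and 0.478%), 15159 bp downstream of Dfd (72.2). The chromatin list had 2 (0.707%, against 0.904% and 1.10%), near lola (85.4) and ph-d (81.9), a Polycomb gene, and neither overlapped the thresholded list. Psc and Su(z)2 did not count for these lists, since the start sites of other genes were nearer to their regions. The heat-shock list had 1 (0.353%, against 0 and 0.239%), 586 bp upstream of stv, a co-chaperone gene (136). None of the 14 nuclear genes for mitochondrial DNA maintenance and transcription was the nearest coding gene of an intergenic region of value 70 or more. They were nearest for 3 lower-value intergenic regions (0.226%) and for 0.143% of all nuclear regions of value 70 or more.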

How the data were processed

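ChIP-seq peak lists of 2 biological replicates (numbers 3 and 4, 1 group) were used on build dm6. The authors deposited a list for each replicate, a pooled list, all with background regions, and a list thresholded by irreproducible discovery rate. The names of the aligner and peak caller, and their settings, were not given in the sources used here. Every region carries a score, deposited by the authors and here called its value. The deposited −log10 of a q-value was turned back into a q-value. The lists hold no read counts, so the depth is unknown, and Wilson intervals (95%) cover counting only. Lists on dm3 were not used.

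Chromosome names and ends were checked against RefSeq Release 6. Genes were those of Ensembl release 115 (BDGP6, version 6.54), without transposable elements. Overlap means at least 1 bp. Python 3.11.15, pandas 2.3.3, NumPy 2.4.6, SciPy 1.17.1 and matplotlib 3.10.9 were used, and the scripts were tested on planted regions.

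The members, 9 gene lists (237 symbols) and 16 motifs were chosen with earlier results of these data known. After values had been seen, symbols that were aliases or stood in the wrong list were respelled or dropped, by name and role alone, and all were then found. Also added were 2 motifs (M1BP and CTCF cores) after sequences had been seen. Named were the 20 highest members, those at the edges of the value minimum and of the thresholded list, the 5 farthest from a start site, runs of 3 or more within 10 kb, and list genes, at most 5 per list. Other named genes were chosen after their values were seen. No test was made, because 1 group gives no contrast. The replicates come from separate biosamples.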

Additional observations from a re-analysis of the deposited data

How the results depend on the processing

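No paired analysis was possible because the 2 samples form 1 group. With a minimum value of 100, 135 regions remained, with a median of 138, and 46 had another within 10 kb. Among regions in the thresholded list, 63 had another such region within 10 kb. A q-value of 0.05 or less in both replicate lists left 181 of the 277 matched regions. Within 250 bp of the summit the A+T share was 59.1%. With the list of 1 replicate and the same minimum of 70, 61 to 70 regions were kept, of which 60 to 69 overlapped the thresholded list and 14 to 20 had another within 10 kb. Their median value was 86.2 to 89.6 and their median distance to a start site 1643 to 2599 bp. The shares with a motif were 0 for the CACGTG letters, 20 to 29.5% for TATAAA, 3.28 to 7.14% for AP-1 (TGANTCA), 10 to 13.1% for TAATTA, 1.64 to 4.29% for the CA repeat and 0 to 4.29% for the TA repeat. The scale of the value differs between lists, so the 2093 top-ranked regions of each replicate were used instead, an alternative chosen after seeing the data. These gave 284 to 290 regions with a median value of 48.7 to 52.6, and 24.6 to 33.4% held TATAAA and 1.03 to 1.41% CACGTG. They shared 80.9% of the 283 in replicate 3 and 78.4% in replicate 4. Over both kinds of single-replicate list, CAGCTG was in 1.64 to 4.23% and the CTCF core in 4.48 to 7.14%. The cause of these changes was not tested, beyond the smaller number of regions. A distance of more than 1000 bp, coding genes alone, and transposable elements counted as genes left the results they were tried on within the limits used (1.5 times for a count). The lists hold no read counts, so no limit set by depth can be given.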
